A study of Mus musculus with 6 samples.

Results

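The Klhl and Kbtbd genes encode kelch-BTB proteins, and the Cul genes encode cullins, the scaffolds of a large family of ubiquitin ligases. Members were taken by gene symbol alone, as every Klhl or Kbtbd gene with a number and every Cul gene with a number and, where present, a or b. The rule found 53 of 21212 probe sets (36 Klhl genes, 9 Kbtbd genes and 8 cullins), each probe set standing for 1 gene. The array's own symbols fit the rule for 52 of the 53, and Kbtbd12 was recognized through its RefSeq gene identifier alone. Klhl3 was named by the array's symbol alone.

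The samples were gastrocnemius/plantaris muscles of male CDF1 mice that were 8 weeks old when obtained. The control group had 3 mice, which received 150 µL of PBS and matrigel without cells under the skin of both flanks. The C26 group had 4 mice, which received the same volume with 500000 C26 cells, a mouse colon adenocarcinoma line that causes muscle wasting, and muscles were taken 25 days later. The labels name no transgene or mutation, and the comparison asks which genes change in the atrophied muscle of tumor-bearing mice. RNA of 2 to 3 muscles was pooled per array, giving control pools 1, 2 and 3 and C26 pools 1, 3 and 4. The sources do not say which muscles entered which pool. Pools of a group may therefore come partly from the same mouse, and every error below is a spread between pools.

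In a cullin ligase, the cullin holds a RING protein at its C-terminal end, which recruits the ubiquitin-loaded enzyme, and an adaptor with its substrate at the N-terminal end. Cul3 binds BTB proteins directly. In a kelch-BTB protein the BTB domain docks on Cul3 and the kelch repeats bind the substrate, so that 1 protein does the work that an adaptor and a receptor share in other cullin ligases. Cul1 works through Skp1 and F-box proteins (among them the muscle atrophy ligase atrogin-1), Cul2 and Cul5 through elongins B and C, and Cul4a and Cul4b through Ddb1. In striated muscle several kelch-BTB proteins sit in or near the sarcomere, and mutations of Klhl40, Klhl41 and Kbtbd13 cause nemaline myopathy.

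All values are log2 RMA expression values, so a step of 1 is a doubling of signal, and changes are C26 minus control. Signals of different probe sets are not comparable, and each gene is compared only with itself. The groups were compared with limma, adjusted over all 21212 probe sets by the Benjamini-Hochberg method, and a gene was said to rise or fall when the adjusted p was at most 0.05 and the change at least 1.5-fold (0.585 on the log2 scale). Array medians lay between 4.93 and 5.02, the Pearson correlation was 0.994 to 0.996 between arrays of a group and 0.976 to 0.981 between groups, and no array stood apart from its group. The 10 muscle fiber markers were all above background, with mean values of 11.9 to 12.0 in control and 11.7 to 11.8 in C26 pools. Of the 10, Mylpf fell (log2 change −0.70, limma adjusted p = 0.000143) and none rose, beside 4.95% and 5.94% of all probe sets. Changes were below 0 for 9 of the 10, and for 12354 of all 21212 probe sets. By less than 1.5-fold, Des was higher (0.29, limma adjusted p = 0.0219) and Mb lower (−0.47, limma adjusted p = 0.00196). A probe set was taken as above background when a group mean exceeded 3.83, the 95th percentile over odorant and vomeronasal receptor genes, which muscle should not express.

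Of the 53 genes, 8 rose (15.1%) and 5 fell (9.43%) in C26 muscle. Over all probe sets 5.94% rose (1261) and 4.95% fell (1049). After centring each array on its median the split was 1534 against 839 over all probe sets, and 11 against 3 among the 53 genes. Those that rose were Klhl38, Klhl2, Klhl21, Klhl30, Klhl40, Cul1, Klhl22 and Klhl24, and those that fell were Klhl23, Kbtbd13, Klhl29, Kbtbd3 and Klhl13. Because the 53 genes were mostly well expressed, the shares were also taken among probe sets above background in at least 1 group. There 8 of 46 genes rose (17.4%) and 4 fell (8.70%), beside 8.33% and 6.88% of all such probe sets. For 34 of the 53 genes (64.2%) all C26 pools lay on one side of all control pools, as for 43.9% of all probe sets. The median change over the 53 genes was 0.01, beside −0.05 over all probe sets.

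**Figure D1:**
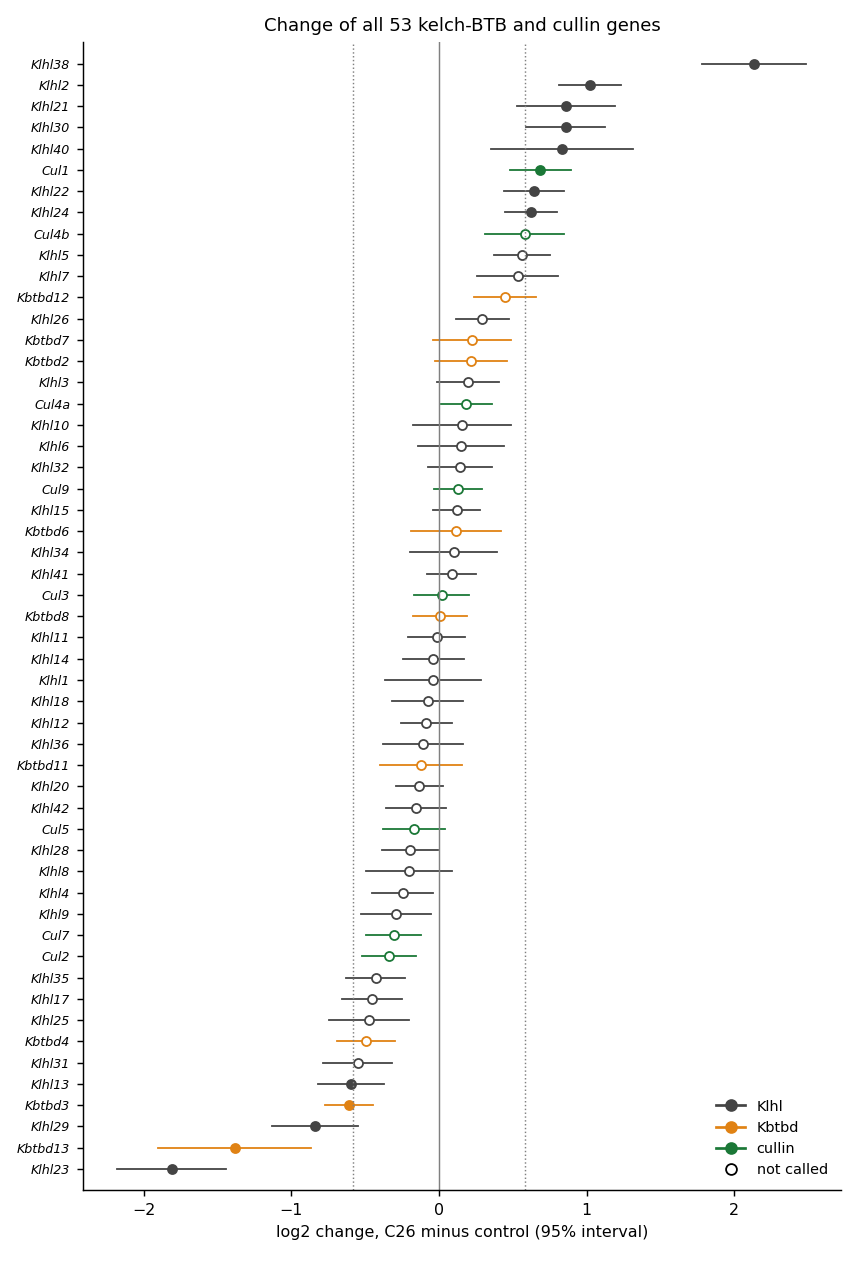
Change of each of the 53 genes in C26 muscle, as log2 C26 minus control with the 95% confidence interval from limma (3 pools per group). Filled points passed both thresholds, open points did not, colors mark Klhl, Kbtbd and cullin genes, and dotted lines mark 1.5-fold. Klhl38 at 2.13 and Klhl23 at −1.81 lie at the ends, and most genes lie within the dotted lines.

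The kelch-BTB genes known for striated muscle were examined first, since the tissue is made mostly of fibers. Of 9 genes on this list 8 had a probe set, and Klhl33 is not analysed here. Klhl38, Klhl30 and Klhl40 rose, Kbtbd13 fell, and Klhl31, Kbtbd12, Klhl34 and Klhl41 did not pass both thresholds. Of the 8 genes 37.5% rose and 12.5% fell, beside 5.94% and 4.95% of all probe sets. All 8 were above background in both groups, and of probe sets above background in at least 1 group 8.33% rose and 6.88% fell. The median change of the 8 genes was 0.27, beside −0.05 over all probe sets.

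Klhl38 is a little-studied kelch-BTB gene with high expression in striated muscle. Its values were 8.01, 8.07 and 8.55 in control pools 1, 2 and 3, and 10.55, 10.27 and 10.20 in C26 pools 1, 3 and 4. Every C26 pool was well above the highest control pool. The change was 2.13 ± 0.155 (SE, n = 3 pools per group), or 4.39-fold, with a limma adjusted p of 3.04e-05, and it was the largest of the 53 in either direction.

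Klhl30, also a muscle-enriched gene of unsettled function, had values of 8.16, 8.04 and 7.72 in control and 8.75, 8.91 and 8.83 in C26 muscle. The groups were apart, and the spread among the C26 pools was smaller than that among the control pools. Klhl30 rose 1.81-fold (log2 change 0.86 ± 0.117 SE, limma adjusted p = 0.000814).

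Klhl40 binds and stabilizes nebulin and leiomodin-3, proteins of the thin filament. Its control pools were at 7.71, 7.21 and 7.25 and its C26 pools at 7.74, 8.53 and 8.40. Control pool 1 and C26 pool 1 nearly met, whereas C26 pools 3 and 4 were far above all controls. The change was 0.83 ± 0.212 (SE), or 1.78-fold, with a limma adjusted p of 0.0173. It was the least certain rise, as the adjusted p went above 0.05 without control pool 2 (0.0562), control pool 3 (0.0559), C26 pool 3 (0.0649) or C26 pool 4 (0.0714). The methods' t-test gave Klhl40 an adjusted p of 0.132.

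Kbtbd13 encodes a sarcomeric protein and Cul3 adaptor. Control pools were at 6.00, 6.32 and 6.12, and C26 pools at 5.35, 4.37 and 4.56. All C26 pools were below all control pools, with C26 pool 1 closest to the controls. The level fell to 38.3% of control (log2 change −1.39 ± 0.226 SE, limma adjusted p = 0.00200), with an adjusted p of 0.0519 in the methods' t-test.

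Klhl31, a sarcomere-associated gene needed for muscle integrity in mice, lay just inside the 1.5-fold limit. It measured 10.83, 10.78 and 10.67 in control and 10.38, 10.22 and 10.02 in C26 pools. The groups did not overlap, and the change was −0.55 ± 0.103 (SE, limma adjusted p = 0.00395), or 68.2% of control. Without control pool 3, or without C26 pool 1, it passed both thresholds. Its described substrate filamin C (Flnc) rose in the same pools, from 10.64, 10.41 and 10.40 to 11.22, 11.68 and 11.46 (log2 change 0.97, limma adjusted p = 0.000587).

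Kbtbd12 measured 5.65, 5.63 and 5.82 in control and 6.03, 6.26 and 6.15 in C26 muscle, a change of 0.45 with a limma adjusted p of 0.00659 and less than 1.5-fold. Klhl41, the nemaline myopathy gene closest to Klhl40 in sequence and function, measured 10.77, 10.76 and 10.74 in control and 10.77, 10.89 and 10.87 in C26 muscle. Its change was 0.09 with a 95% interval of −0.08 to 0.25, which lies inside 1.5-fold in both directions. Klhl34 overlapped between groups, with 6.11, 6.13 and 5.93 in control, 5.98, 6.45 and 6.03 in C26 and an interval of −0.20 to 0.40.

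Of the proteins that Klhl40 and Klhl41 protect, nebulin (Neb) measured 12.08, 12.04 and 12.03 in control and 12.03, 12.00 and 11.97 in C26 pools, a change of −0.05 with a limma adjusted p of 0.653, and of 0.07 after quantile normalization. Leiomodin-3 (Lmod3) fell from 8.50, 8.50 and 8.44 to 7.77, 7.83 and 7.85 (log2 change −0.67, limma adjusted p = 0.000214). Protein levels were not measured on these arrays.

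**Figure D2:**
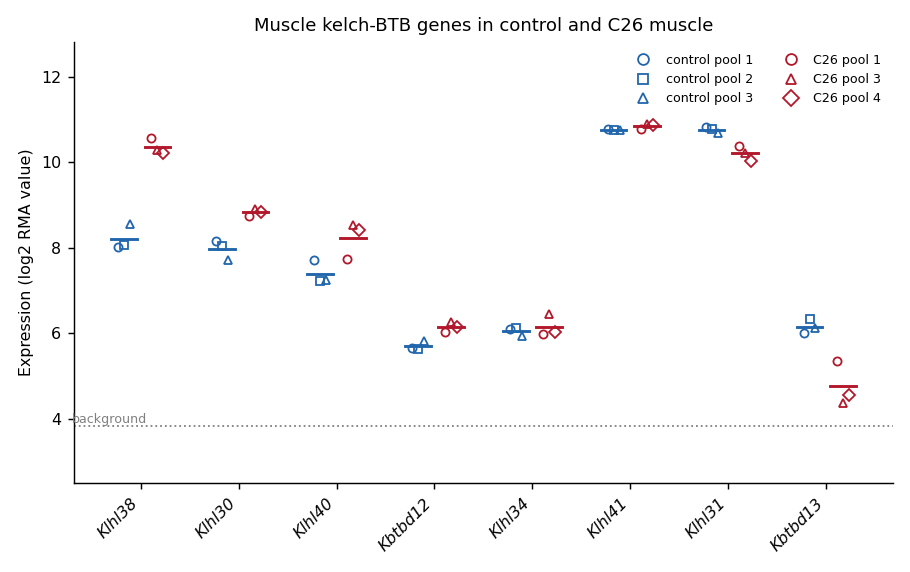
Log2 RMA expression of the 8 muscle kelch-BTB genes in each pool (blue, control pools 1, 2 and 3; red, C26 pools 1, 3 and 4), with a bar at each group mean and a dotted line at the background level of 3.83. Klhl38, Klhl30 and Klhl40 are higher in C26 pools, Kbtbd13 and Klhl31 are lower, and Klhl41 stays within 10.74 to 10.89.

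Promoter sequence was available from RefSeq (GRCm38.p6) for 44 of the 53 genes, in 57 windows that run from 250 bases before to 50 bases after a transcript start, and for 10 of the 13 genes that rose or fell. Klhl38, Klhl30 and Klhl24 had none. A loose form of the letters bound by MEF2, a transcription factor family of muscle, was searched on either strand. These MEF2 letters (CTA, then 4 free bases, then TAG) were found in 3.69% of all 32851 windows. Among the 53 genes these letters were found in 3 of 57 windows (5.26%), those of Kbtbd13, Kbtbd12 and Klhl41. All 3 genes are on the muscle list, of which 6 genes had a window. The 250 bases before the start of these 3 genes follow, on the strand of the gene and read 5′ to 3′, to show the letters in genes whose levels fell, did not reach 1.5-fold and were nearly level. Capitals mark the MEF2 letters.
Kbtbd13: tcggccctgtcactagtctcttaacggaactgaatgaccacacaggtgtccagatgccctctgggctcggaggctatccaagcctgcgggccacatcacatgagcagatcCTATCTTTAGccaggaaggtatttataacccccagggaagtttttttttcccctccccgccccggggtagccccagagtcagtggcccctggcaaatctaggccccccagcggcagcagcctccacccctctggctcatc
Kbtbd12: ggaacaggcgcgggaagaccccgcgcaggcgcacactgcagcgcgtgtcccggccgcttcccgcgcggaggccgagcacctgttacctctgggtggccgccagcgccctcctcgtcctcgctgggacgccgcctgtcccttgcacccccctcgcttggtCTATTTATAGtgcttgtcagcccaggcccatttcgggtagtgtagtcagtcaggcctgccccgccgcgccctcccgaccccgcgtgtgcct
Klhl41: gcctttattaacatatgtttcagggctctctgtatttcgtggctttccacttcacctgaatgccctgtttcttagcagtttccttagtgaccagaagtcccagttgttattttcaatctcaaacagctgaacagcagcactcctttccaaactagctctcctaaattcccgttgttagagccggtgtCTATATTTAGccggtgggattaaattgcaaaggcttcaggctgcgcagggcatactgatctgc

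The Kbtbd13 stretch is chr9:65391653-65391902 on the minus strand, with the letters CTATCTTTAG starting 140 bases before the start. That of Kbtbd12 is chr6:88627430-88627679 on the minus strand, with CTATTTATAG starting 91 bases before it, and that of Klhl41 is chr2:69669870-69670119 on the plus strand, with CTATATTTAG starting 63 bases before it. The free middle bases are all A or T in Kbtbd12 and Klhl41 and include a C in Kbtbd13. Klhl40, a muscle gene that rose, has no MEF2 letters in its window. The letters CANNTG of an E-box, the kind of element bound by MyoD and related factors, occur at 3 places in the 250 bases before its start, marked by capitals below. The full window of 300 bases holds 4, as do those of Kbtbd13 and Klhl41, and that of Kbtbd12 holds 1. Such letters occur in 72.3% of all windows and 56.1% of those of the 53 genes. In the stretches shown, no MEF2 letters overlap an E-box.
Klhl40: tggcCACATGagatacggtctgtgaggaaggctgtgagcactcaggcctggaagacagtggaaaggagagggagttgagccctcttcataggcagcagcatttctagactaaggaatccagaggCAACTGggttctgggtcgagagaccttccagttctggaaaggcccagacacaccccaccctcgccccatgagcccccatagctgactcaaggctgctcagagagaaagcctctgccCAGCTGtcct

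The Klhl40 stretch is chr9:121777357-121777606 on the plus strand, with the E-box letters starting 246, 126 and 10 bases before the start. Further letters were searched on both strands in the windows of the 53 genes. GTAAACA, bound by FoxO factors, was in 1.75% of their windows beside 3.65% of all windows. TTCNNNGAA, bound by STAT factors, was in 7.02% beside 8.30%, and TGACNNNGC, part of the antioxidant element, was in 17.5% beside 12.4%. The kappaB consensus was in 0 of 57 windows beside 4.51% of all, and TTGCGCAA, bound by C/EBP factors, in 0 of 57 beside 0.183%. These are matches of letters and not measured sites.

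The kelch-BTB genes outside the muscle list that rose included both signaling and mitotic adaptors. Klhl2 encodes an adaptor that, like its close relative Klhl3, brings WNK kinases to Cul3. Its values were 5.24, 4.98 and 5.25 in control and 6.18, 6.20 and 6.15 in C26 pools. The C26 pools were tightly grouped and all above the controls, and Klhl2 rose 2.03-fold (log2 change 1.02 ± 0.092 SE, limma adjusted p = 8.91e-05). Klhl3 measured 4.35, 4.39 and 4.61 in control and 4.71, 4.65 and 4.57 in C26 muscle (limma adjusted p = 0.154), with overlapping pools. The kinase Wnk1 went from 9.61, 9.63 and 9.61 to 9.18, 9.07 and 8.97, a change of −0.54 (limma adjusted p = 0.00119) that is less than 1.5-fold.

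Klhl21 is an adaptor known from mitosis, where it acts on Aurora B, and it has also been described as a Cul3 adaptor for IKKβ, a kinase of the NF-kappaB pathway. It measured 8.74, 8.77 and 9.11 in control and 9.97, 9.76 and 9.47 in C26 pools. Control pool 3 and C26 pool 4 came closest to each other, and the groups did not overlap. Klhl21 rose 1.81-fold (log2 change 0.86 ± 0.145 SE, limma adjusted p = 0.00238).

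Klhl22 acts on the mitotic kinase Plk1 and on Depdc5, an inhibitor of amino acid signaling to mTORC1. It rose from 6.53, 6.64 and 6.77 to 7.21, 7.30 and 7.37, with every C26 pool above every control pool (1.56-fold, log2 change 0.64 ± 0.089 SE, limma adjusted p = 0.000877). Klhl24, whose protein controls keratin 14 turnover in skin, rose from 9.40, 9.38 and 9.34 to 10.06, 10.04 and 9.90. Its pools were close together within each group (1.54-fold, log2 change 0.62 ± 0.077 SE, limma adjusted p = 0.000457). Both genes lay near the 1.5-fold limit. Klhl22 dropped below it without control pool 1, and Klhl24 did so under quantile normalization, at 0.578.

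Among the genes that fell, Klhl23 changed most. Its values were 6.02, 5.58 and 6.00 in control and 4.37, 3.85 and 3.96 in C26 pools, with C26 pools 3 and 4 close to the background level of 3.83. The level fell to 28.5% of control (log2 change −1.81 ± 0.161 SE, limma adjusted p = 8.47e-05). Klhl29 measured 6.10, 6.24 and 5.93 in control and 5.04, 5.22 and 5.49 in C26 pools. It fell to 55.8% of control with no overlap (log2 change −0.84 ± 0.128 SE, limma adjusted p = 0.00138). The functions of Klhl23 and Klhl29 are not well settled.

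Klhl13, which works with Klhl9 on Aurora B in dividing cells, measured 5.77, 5.79 and 5.53 in control and 4.98, 5.19 and 5.13 in C26 muscle. It fell to 66.2% of control (log2 change −0.60 ± 0.098 SE, limma adjusted p = 0.00209), just past the 1.5-fold limit. The change became less than 1.5-fold under quantile normalization, median centring, cyclic loess or without any of control pool 1, control pool 2 or C26 pool 1. Klhl9 measured 7.39, 7.41 and 7.57 in control and 7.32, 7.20 and 6.98 in C26 pools (limma adjusted p = 0.0677). Klhl9 and Klhl13 are close paralogs, and how far their probes share signal was not resolved.

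Kbtbd3 was under the background level in all pools, at 3.57, 3.54 and 3.57 in control and 2.90, 2.99 and 2.97 in C26 muscle. It is counted among the 5 falls (limma adjusted p = 0.000333), but no fold is given for 2 signals under background. It was not past 1.5-fold under the other scalings of the arrays or without C26 pool 1. In all, 7 of the 53 genes were under background in both groups, namely Klhl10, Klhl32, Kbtbd6, Kbtbd8, Klhl14, Klhl1 and Kbtbd3. Klhl10 is known from spermatids and Klhl1 from neurons.

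**Figure D3:**
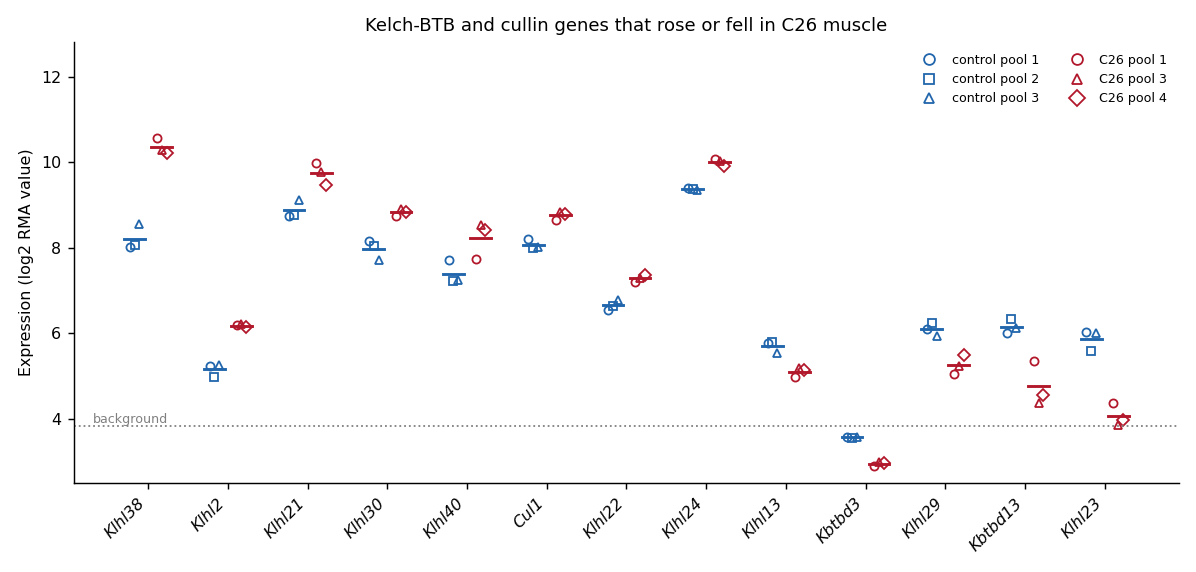
Log2 RMA expression of the 13 genes that rose or fell, in each pool (blue, control pools 1, 2 and 3; red, C26 pools 1, 3 and 4), with a bar at each group mean and a dotted line at the background level of 3.83. The groups do not overlap for any of the 13 genes, Klhl40 has its control pool 1 (7.71) almost at its C26 pool 1 (7.74), and Kbtbd3 lies under the line in every pool.

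For the 13 genes, the pool closest to the control mean was C26 pool 1 for 6 genes, pool 3 for 2 and pool 4 for 5. The pool farthest from it was pool 1 for 6 genes, pool 3 for 6 and pool 4 for 1. Since the 13 genes were chosen by a test on these pools, the counts are a description. The median SD between pools over the 53 genes was 0.107 in control and 0.106 in C26 muscle, beside 0.101 and 0.104 over all probe sets.

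A further 12 genes passed the adjusted p but changed by less than 1.5-fold. Those with higher values in C26 muscle were Cul4b, Klhl5, Klhl7, Kbtbd12 and Klhl26, and those with lower values were Cul7, Cul2, Klhl35, Klhl17, Klhl25, Kbtbd4 and Klhl31. With the genes past 1.5-fold included, 13 of the 53 genes passed the adjusted p upward and 12 downward. Over all 21212 probe sets 3041 and 3344 did so. Klhl5 came close to the limit, with 5.14, 5.26 and 5.03 in control and 5.70, 5.67 and 5.76 in C26 pools, or 1.48-fold (limma adjusted p = 0.00125). Klhl25, the adaptor of the translation inhibitor 4E-BP1, measured 4.92, 5.10 and 4.98 in control and 4.66, 4.66 and 4.26 in C26 pools, or 72.0% of control (limma adjusted p = 0.0165). The 4E-BP1 gene Eif4ebp1 rose from 8.25, 8.20 and 8.46 to 10.72, 10.72 and 10.86 (log2 change 2.46, limma adjusted p = 1.96e-06).

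The remaining 28 genes did not pass the adjusted p, with changes between −0.29 and 0.23. Half-widths of their 95% intervals were 0.159 to 0.332. The pools of 9 of the 28 genes did not overlap, beside 43.9% of all probe sets, those past the adjusted p included. Over all 53 genes, the intervals of 31 lay wholly within 1.5-fold in both directions, a count not made for all probe sets. Of the 28 genes, Kbtbd2, the adaptor of the insulin signaling subunit p85α, measured 6.51, 6.35 and 6.37 in control and 6.82, 6.62 and 6.43 in C26 muscle (limma adjusted p = 0.174). The p85α gene Pik3r1 rose from 6.67, 6.78 and 6.88 to 8.12, 8.11 and 8.07 (log2 change 1.32, limma adjusted p = 1.45e-05). Kbtbd7, which with Kbtbd6 directs Tiam1, a Rac activator, to Cul3, measured 5.88, 5.81 and 5.98 in control and 6.28, 6.20 and 5.86 in C26 pools (limma adjusted p = 0.187). Tiam1 itself fell from 5.27, 5.74 and 5.67 to 4.43, 4.51 and 4.52 (log2 change −1.07, limma adjusted p = 0.000303). Klhl6, known from B cells, overlapped between groups at 4.25, 4.59 and 4.29 in control and 4.31, 4.55 and 4.71 in C26 muscle.

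Of the 8 cullins, Cul1 rose (12.5%, beside 5.94% of all probe sets) and none fell (beside 4.95%). All 8 were above background in both groups, and of probe sets above background in at least 1 group 8.33% rose and 6.88% fell. Cul1 measured 8.20, 7.98 and 8.02 in control and 8.64, 8.83 and 8.79 in C26 pools, so that the groups were clearly apart. The rise was 1.61-fold (log2 change 0.69 ± 0.091 SE, limma adjusted p = 0.000659), and 0.57 on the log2 scale, under 1.5-fold, after quantile normalization. Cul4b measured 5.91, 5.97 and 6.29 in control and 6.56, 6.79 and 6.55 in C26 pools. It stayed just under the 1.5-fold limit (log2 change 0.580 ± 0.118 SE, limma adjusted p = 0.00610), and it passed after median centring and without control pool 3, C26 pool 1 or C26 pool 4. Its paralog Cul4a, whose probes may share signal with it, measured 7.58, 7.67 and 7.56 in control and 7.77, 7.85 and 7.75 in C26 pools (log2 change 0.19, limma adjusted p = 0.0978).

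Cul3, the scaffold on which kelch-BTB adaptors dock, was nearly level. It measured 10.27, 10.27 and 10.18 in control and 10.32, 10.32 and 10.14 in C26 pools, with overlapping groups. The change was 0.02 with a 95% interval of −0.17 to 0.21, inside 1.5-fold in both directions, and its sign depended on the scaling, being −0.04 after quantile normalization. Cul2 measured 7.91, 8.04 and 7.97 in control and 7.73, 7.63 and 7.55 in C26 pools (log2 change −0.34, limma adjusted p = 0.0133). Cul7, a scaffold with a single known F-box partner, measured 5.36, 5.36 and 5.53 in control and 5.18, 5.07 and 5.09 in C26 pools (−0.31, limma adjusted p = 0.0214). Both were lower in every C26 pool than in every control pool, by less than 1.5-fold. Cul5 measured 8.34, 8.28 and 8.27 in control and 8.04, 8.30 and 8.05 in C26 pools (−0.17, limma adjusted p = 0.207). Cul9 measured 6.13, 6.20 and 6.15 in control and 6.33, 6.28 and 6.26 in C26 pools (0.13, limma adjusted p = 0.214). The median change of the 8 cullins was 0.07, beside −0.05 over all probe sets.

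The parts that cullins work with were counted in the same way. Over all probe sets 5.94% rose and 4.95% fell, with a median change of −0.05. Among probe sets above background in at least 1 group the shares were 8.33% and 6.88%. Of 8 core subunits and adaptors, Ddb1, the adaptor of Cul4a and Cul4b, rose (12.5%) and none fell, with a median change of −0.16. Ddb1 went from 8.98 to 9.01 over the control pools to 9.56, 9.77 and 9.65 (log2 change 0.66 ± 0.080 SE, limma adjusted p = 0.000418). Rbx1, the RING subunit of most cullin ligases, measured 7.05, 7.15 and 7.21 in control and 6.71, 6.77 and 6.69 in C26 pools, a change of −0.42 (limma adjusted p = 0.00388) that is less than 1.5-fold.

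Cullins are switched on by attachment of the ubiquitin-like protein Nedd8 and switched off by the COP9 signalosome. Of 12 neddylation genes none rose and Dcun1d2, which helps to load Nedd8 on cullins, fell from 7.99, 7.95 and 7.83 to 7.11, 6.93 and 6.93 (log2 change −0.93, limma adjusted p = 0.000102). Nedd8 itself measured 9.18, 9.16 and 9.12 in control and 8.97, 9.05 and 9.19 in C26 pools (limma adjusted p = 0.483). The median change of the 12 genes was −0.11, and 11 of them were below 0, as were 12354 of all 21212 probe sets. Of 11 measured genes of the COP9 signalosome and the CAND exchange factors none rose and Cand2, the muscle form of CAND, fell from 8.83, 8.69 and 8.81 to 8.12, 8.12 and 7.91 (log2 change −0.73, limma adjusted p = 0.000427). Their median change was −0.04, and Gps1 is not analysed here. Falls were 8.33% of the neddylation genes and 9.09% of the COP9 and CAND genes. Over all probe sets 4.95% fell and 5.94% rose, and among those above background in at least 1 group 6.88% fell and 8.33% rose.

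Other BTB proteins compete for Cul3 under names that the rule did not take. Of 21 such genes 4 rose (19.0%) and 2 fell (9.52%), beside 5.94% and 4.95% of all probe sets. All 21 were above background in both groups, and of probe sets above background in at least 1 group 8.33% rose and 6.88% fell. Their median change was −0.03, beside −0.05 over all probe sets. Zbtb16, a BTB zinc-finger factor, rose from 8.23, 8.45 and 8.50 to 9.90, 9.77 and 9.60 (log2 change 1.37, limma adjusted p = 4.13e-05). Rhobtb2 (−0.90) and Rhobtb1 (−0.86), which carry BTB domains, fell in all C26 pools. The 21 include 6 kelch-BTB genes under other names, of which Ivns1abp (0.81), Enc1 (0.78) and Keap1 (0.62) rose and none fell. Keap1, the adaptor that holds Nrf2 down, measured 7.54, 7.58 and 7.48 in control and 8.03, 8.26 and 8.17 in C26 pools (limma adjusted p = 0.000795), and was under 1.5-fold after quantile normalization (0.54), after cyclic loess (0.57) and without C26 pool 3 (0.57). The Nrf2 gene Nfe2l2 rose from 7.65, 7.67 and 7.66 to 8.76, 8.63 and 8.78 (log2 change 1.07, limma adjusted p = 2.65e-05).

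Of 21 genes whose proteins are described substrates or partners of kelch-BTB adaptors, 5 rose (Eif4ebp1, Pik3r1, Nfe2l2, Flnc and Nolc1) and 2 fell (Tiam1 and Lmod3). These are 23.8% and 9.52% of the 21 genes, beside 5.94% and 4.95% of all probe sets. Of the 21 genes, 20 were above background, and of probe sets above background in at least 1 group 8.33% rose and 6.88% fell. The median change was −0.05 for the 21 genes and for all probe sets. Nolc1, a nucleolar protein that Kbtbd8 marks in neural crest cells, rose by 0.66 on the log2 scale (limma adjusted p = 0.000672). A ligase acts on the protein of its substrate, which was not measured, so the mRNA values of adaptor and substrate are given side by side without a relation between them.

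**Figure D4:**
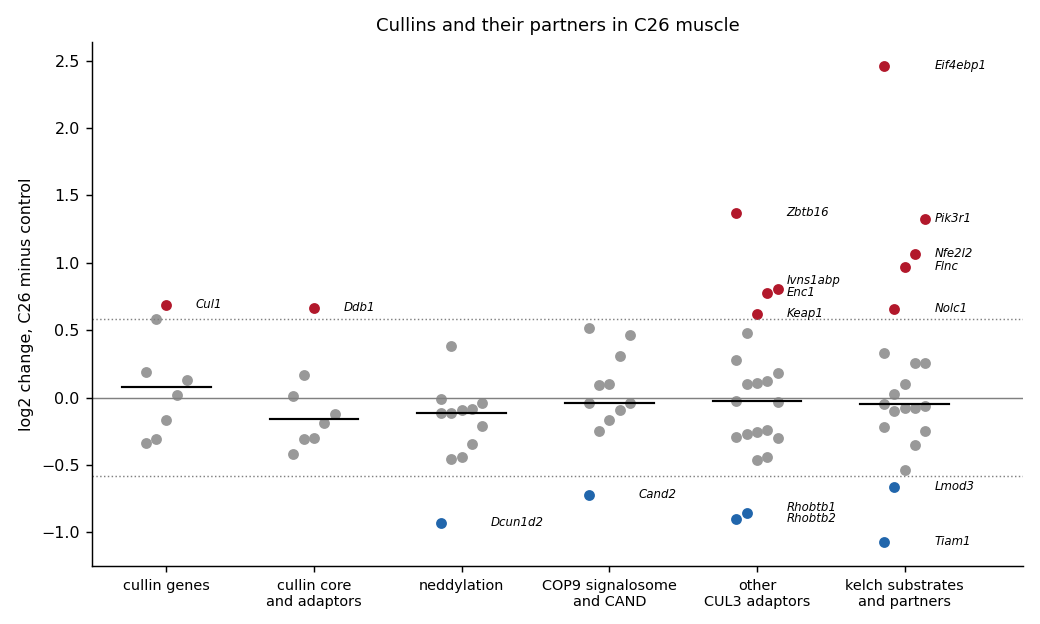
Change of the cullins and of 5 lists of their partners in C26 muscle, as log2 C26 minus control from limma (1 point per gene, bar at the median of the list, dotted lines at 1.5-fold). Red points rose, blue points fell and gray points did not pass both thresholds. Medians lie between −0.16 and 0.07, and Eif4ebp1 at 2.46 is the farthest point.

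The muscles held cells other than fibers, and some of their markers moved with the groups. Over all probe sets 5.94% rose and 4.95% fell. Of 10 macrophage markers 7 rose (mean value 5.75 to 5.89 in control and 6.53 to 6.66 in C26 pools), and of 10 neutrophil markers 6 rose (3.17 to 3.30 and 4.20 to 4.43), 4 of the 10 being under background in both groups. Of 10 fibroblast and tendon markers 6 fell (8.25 to 8.37 in control and 6.81 to 6.95 in C26 pools), as did 3 of 5 adipocyte markers and 1 of 5 satellite cell markers. No lymphocyte marker of 8 and no proliferation marker of 5 rose or fell. Of these, 5 lymphocyte and 2 proliferation markers were under background in both groups. Of 7 slow fiber markers, 1 fell, of 7 Schwann and nerve markers, 1 fell, and of 7 endothelial markers 1 rose and 1 fell. The part of these shifts in the rises and falls of the 13 genes was not tested. In RNA of whole muscle, fewer cells of a type and less RNA per cell cannot be told apart.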

How the data were processed

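Gastrocnemius/plantaris RNA (RNA integrity number at least 8.0) of 3 control and 3 C26 pools was measured on Affymetrix Mouse Gene 1.0 ST arrays. The authors made the deposited log2 values with RMA in GenePattern and the Brainarray custom CDF, version 13, which corrects background, quantile-normalizes and summarizes probes per gene. RMA hides differences in total signal between arrays. The sources used here do not give its genome build.

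Probe sets were named by RefSeq gene identifier (20656) or the platform's symbol alone (53), and 503 stayed unnamed but were tested. Groups came from the sample labels. A two-sided moderated test was run with lmFit and eBayes of limma 3.58.1 (R 4.3.3), with 4.52 prior degrees of freedom, and p-values were adjusted over 21212 probe sets by the Benjamini-Hochberg method. The methods' two-sided t-test was an alternative, run here with equal variances and Benjamini-Hochberg adjustment. The study's methods state neither the variances nor how q-values were computed, so results under this name are not the authors' own. An exact permutation test of 3 against 3 pools cannot go below p = 0.1 and was not used. Other alternatives were unequal variances, limma with trend and robust settings, quantile normalization, median centring, cyclic loess, a filter on dim probe sets, other folds, a replicate block, and dropping each array in turn. The number of arrays limits the precision. Scripts were tested on simulated data.

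The members and lists were chosen with earlier results of these data known. Named with pool values were all genes that rose or fell, the muscle list and the cullins. From the other lists, genes that rose or fell and Rbx1, Nedd8, Keap1 and Neb were named, and other genes where a known role or closeness to the thresholds is told.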

Additional observations from a re-analysis of the deposited data

How the results depend on the processing

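All counts are given as genes that rose and genes that fell, beside 8 and 5 of the 53 as reported. The methods' t-test gave 7 and 4, losing Klhl40 and Kbtbd13, and the t-test with unequal variances gave 4 and 3, losing also Klhl2 (adjusted p 0.0502), Klhl21 (0.0688), Klhl30 (0.0797) and Klhl29 (0.0605). Trend and robust limma gave 8 and 5, and the filter on dim probe sets 8 and 4, Kbtbd3 not being tested there. Quantile normalization gave 7 and 3, median centring 11 and 3 and cyclic loess 9 and 3, with Klhl13 and Kbtbd3 under 1.5-fold in each. With no minimum fold there were 13 and 12, and at 2-fold 2 and 2. Over all 21212 probe sets these 2 settings gave 3041 and 3344, and 432 and 307. The methods' t-test gave 1131 and 936 over all probe sets, and unequal variances 760 and 621. Quantile normalization gave 1203 and 1085 there, median centring 1534 and 839, and cyclic loess 1264 and 1027. Leaving out 1 pool gave 7 to 9 and 4 to 6 of the 53, beside 1196 to 1391 and 992 to 1155 over all probe sets. Trend and robust limma gave 1254 and 1045 over all probe sets, and the filter 1243 and 1022 of 14841.

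With unequal variances, the core subunits and adaptors had 0 rises, the muscle list 1 rise and 0 falls, the substrates 1 fall and the other Cul3 adaptors 1 fall. The methods' t-test left 0 falls on the muscle list. Cullin rises numbered 0 after quantile normalization and 2 after median centring. With no minimum fold, there were 2 rises and 2 falls among cullins and among COP9 and CAND genes, 2 falls among core subunits and on the muscle list, 4 falls among substrates, 1 rise and 4 falls among neddylation genes and 7 falls among other Cul3 adaptors. At 2-fold, rises numbered 0 among core subunits and cullins, 1 on the muscle list and among other Cul3 adaptors and 3 among substrates, and falls numbered 1 among substrates and 0 among COP9 and CAND, neddylation and other Cul3 adaptor genes. Leaving out 1 pool gave 0 to 1 COP9 and CAND rises, 1 to 2 cullin rises and 1 to 2 falls on the muscle list.

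Of the 50 genes followed singly under the alternatives, 3 changed sign, all with changes near 0. Klhl3, Klhl6, Klhl9, Kbtbd2, Kbtbd7 and Wnk1 were not followed. Cul3 was −0.039 after quantile normalization and −0.011 to 0.078 when 1 pool was left out, Klhl34 was −0.050 without C26 pool 3 (−0.050 to 0.186 over all pools left out), and Neb was 0.073 after quantile normalization and 0.016 after median centring. Pools share the replicate numbers 1 and 3 only, and deviations of same-numbered pools correlated at −0.061 and −0.057, so the numbers do not pair them. With a replicate block 9 of the 53 genes rose and 4 fell, beside 1235 and 1069 over all probe sets. Klhl40 (limma adjusted p 0.133) and Klhl13 (log2 change −0.57) were lost, and Klhl5 and Klhl7 were gained. The cause of these changes was not tested.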
